A study of Mus musculus with 14 samples.

Results

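The genes described here are 36 enzymes and enzyme subunits of amino acid breakdown in liver, taken as a list of names and grouped by the amino acid they break down. They are 36 of the 24970 genes with a count in any library, and all 36 were among the 13127 genes expressed highly enough to be tested. RNA sequencing of liver from recipient mice on a high-fat diet gave 14 libraries. For 6 of them (transplant) the implanted silk scaffold carried pre-adipocytes isolated from brown fat, from its stromal fraction, and differentiated, and for 8 (empty scaffold) the scaffold held no cells. The diet and the scaffold were therefore shared by both groups, and the donor cells were the difference between them. The strain, sex, age and the time after surgery are not given in the labels used here, nor is it stated that every library comes from an animal of its own. P-values therefore measure only the spread among the 14 libraries, which may in part be technical.

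The liver breaks down most amino acids that are not used for protein. Nitrogen is moved by aminotransferases or released as ammonia and enters the urea cycle, while the carbon skeletons feed glucose synthesis, ketone bodies or the citric acid cycle. Branched chain amino acids differ in that their first step, transamination, takes place largely outside the liver, which then oxidises the resulting keto acids. Several of these enzymes are classical targets of glucagon and glucocorticoids, and some are made mainly near the portal vein or mainly near the central vein.

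Of the 36 genes, 3 rose in transplant livers at an adjusted p under 0.05: Ahcy, Hibch and Prodh. None fell. Over all 13127 tested genes, 435 (3.31%) were called higher and 555 (4.23%) lower, against which the 3 of 36 are 8.33%. Ahcy hydrolyses S-adenosylhomocysteine, Hibch is the hydrolase of 3-hydroxyisobutyryl-CoA in valine breakdown, and Prodh is proline dehydrogenase of the mitochondrial inner membrane. At an unadjusted p under 0.05 the edgeR quasi-likelihood test gave 13 of the 36 higher and 0 lower, while 3940 of all 13127 tested genes passed that limit in either direction. DESeq2 called 9 of the 36 higher and 0 lower, with 7.86% of all genes called higher and 7.11% lower. Of the 36 log2 fold changes, 30 were above 0 and 6 below, with a median of 0.21 against -0.02 over all tested genes.

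The sign of most of these fold changes depended on how the libraries were scaled. The values above use TMM factors, which centre the bulk of genes. With total counts alone, 16 of the 36 were above 0 and 20 below, their median was -0.01 and that of all tested genes -0.25. Under that scaling none was called higher and Cbs and Uroc1 were called lower, where 0.891% of all genes were called higher and 21.1% lower. In the deposited TPM values, 3 of the 36 (Hpd, Gnmt and Ahcy) were above 0, with a median of -0.23 against -0.47 for all tested genes. The same number, 30 of 36, lay above the median of all tested genes under each of the 3 scalings, and the median of the 36 exceeded it by 0.23 to 0.24. Beside this stands the share of the library held by 22 major urinary protein (Mup) genes, which took 8.37% to 23.6% of TPM in transplant livers and 4.0% to 11.8% in empty scaffold livers. Its part in the result was not tested. "Rose" and "fell" below mean relative to the bulk of genes, with TMM factors, and levels in CPM (counts relative to the library total) carry the same factors.

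**Figure D1:**
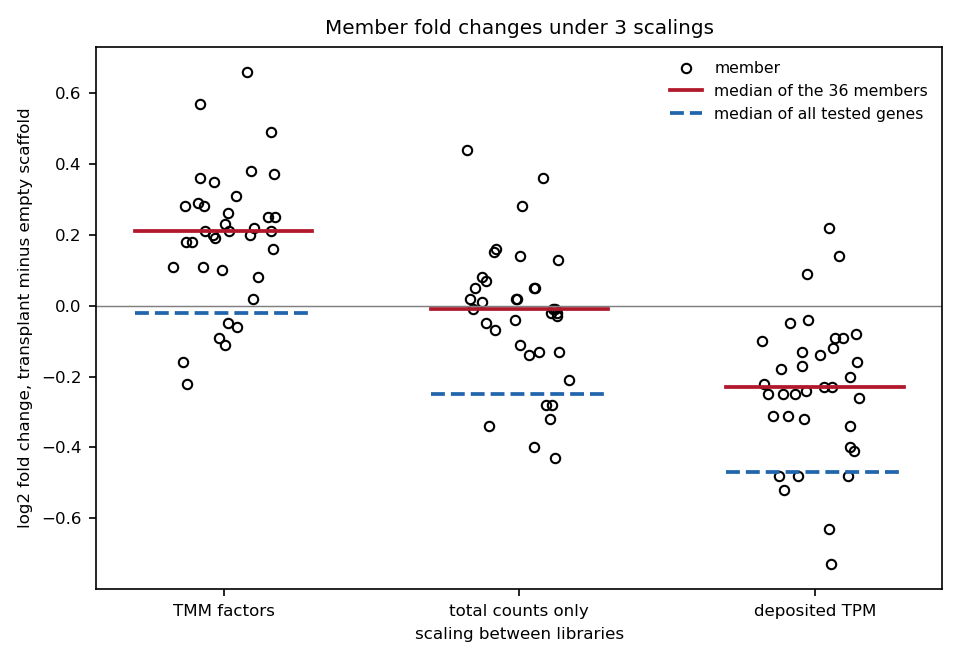
Log2 fold changes of the 36 genes (circles), transplant minus empty scaffold, under TMM factors, total counts only and deposited TPM, with the median of the 36 (solid line) and of all tested genes (dashed line). Both medians moved down together, to -0.23 for the 36 genes and -0.47 for all genes in TPM, so that 30, 16 and 3 of the 36 lie above 0.

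**Figure D2:**
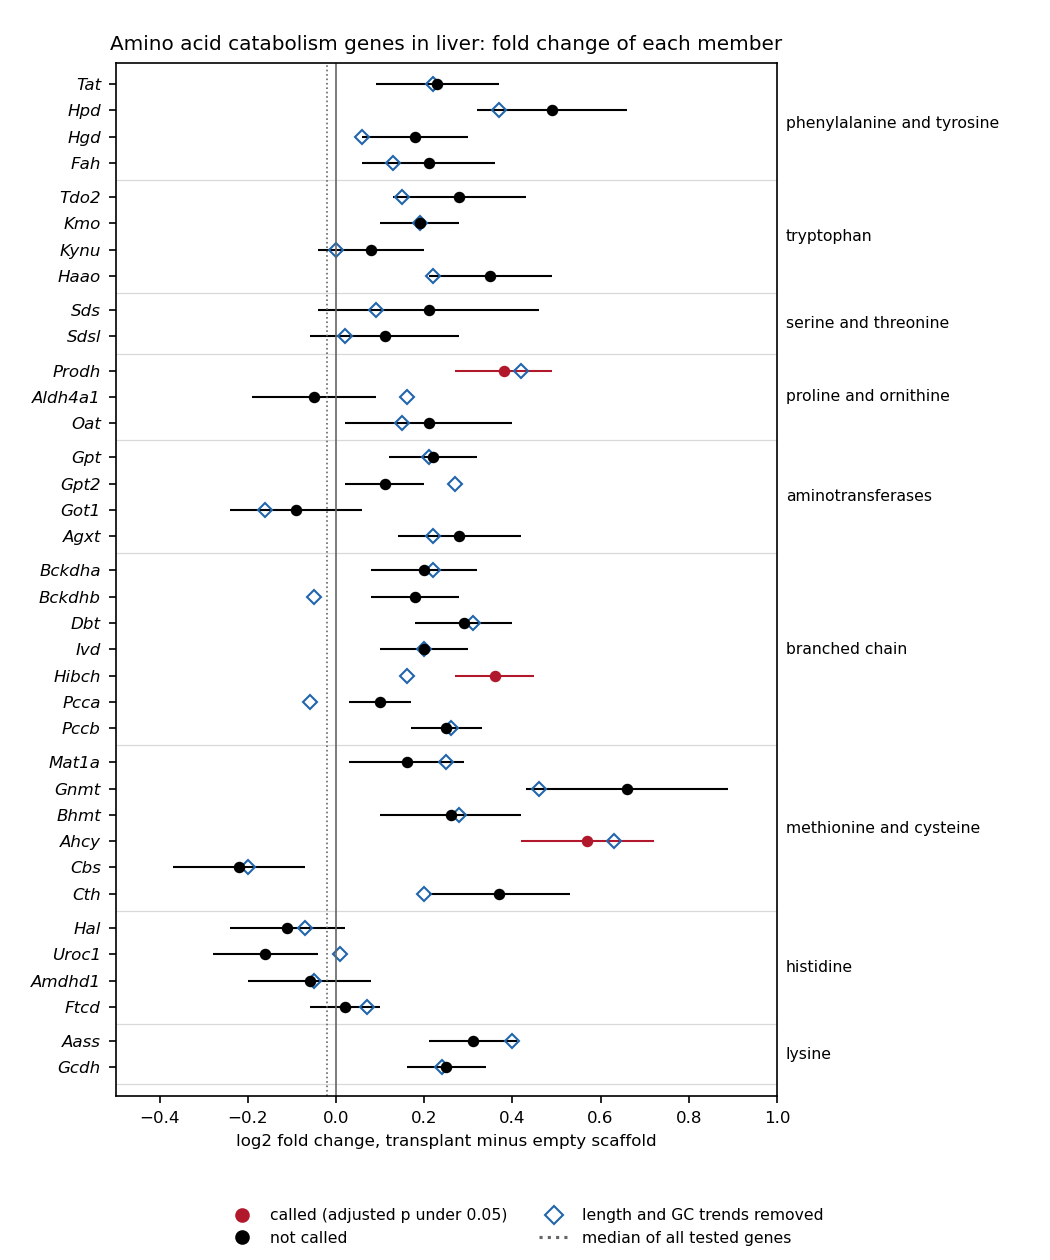
Log2 fold change with the standard error of the fit for each of the 36 genes, transplant minus empty scaffold, grouped by the amino acid broken down, with TMM factors, and as diamonds the value with length and GC trends taken out. The 3 genes called higher (Ahcy, Hibch and Prodh) stand apart in colour, and 6 genes lie below 0 here, against 20 with total counts alone and 33 in TPM.

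The 250 bases before the RefSeq start of the 3 genes that rose are shown because they are the ones the count rests on (RefSeq sequences on GRCm38.p6, written 5′ to 3′ on the strand of the gene, with GC boxes, GGGCGG or its reverse complement CCGCCC, in capitals). The Prodh window lies at chr16:18089191-18089440 on the minus strand, the Hibch window at chr1:52844788-52845037 on the plus strand and the Ahcy window at chr2:155074498-155074747 on the minus strand.
Prodh: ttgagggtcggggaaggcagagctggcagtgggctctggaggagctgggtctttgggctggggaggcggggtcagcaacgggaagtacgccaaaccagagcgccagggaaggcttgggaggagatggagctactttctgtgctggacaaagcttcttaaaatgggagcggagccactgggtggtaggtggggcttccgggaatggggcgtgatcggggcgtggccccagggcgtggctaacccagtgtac
Hibch: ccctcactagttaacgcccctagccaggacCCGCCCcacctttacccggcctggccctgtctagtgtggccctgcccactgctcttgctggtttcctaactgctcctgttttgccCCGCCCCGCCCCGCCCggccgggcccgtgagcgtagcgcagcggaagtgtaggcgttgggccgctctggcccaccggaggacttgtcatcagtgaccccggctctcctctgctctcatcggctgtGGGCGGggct
Ahcy: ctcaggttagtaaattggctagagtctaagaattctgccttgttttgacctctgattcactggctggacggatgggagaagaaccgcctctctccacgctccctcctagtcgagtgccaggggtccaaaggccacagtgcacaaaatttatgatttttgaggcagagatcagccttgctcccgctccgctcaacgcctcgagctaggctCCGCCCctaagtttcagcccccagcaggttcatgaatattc

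The Hibch window was the richest of the 3 in GC, at 68.0%, and held 5 GC boxes, some of which share a base. The Ahcy window held 1 GC box at 52.8% GC, and the Prodh window held none at 63.2% GC. The median over the windows of all 32851 promoters was 52.4% GC. Among the 29 of the 36 genes with a RefSeq window, 10 held a GC box, against 32.7% of all promoters. Here and for the motifs below, a gene counted if any of its windows held the motif, while the shares are of single windows. A gene with more than 1 window thus had more chances. The core of the cAMP response element (TGACG) was in 3 of 29 against 17.8% of all, the C/EBP letters TTGCNNAA in 4 of 29 against 9.56%, and the glucocorticoid receptor letters TGTTCT in 4 of 29 against 16.1%. Both strands were searched for each, and the 3 windows printed held none of these last 3 motifs.

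The methionine cycle held the genes with the largest fold changes of the 36. Mat1a makes S-adenosylmethionine, Gnmt spends it on glycine, Ahcy hydrolyses the S-adenosylhomocysteine left over, and Bhmt returns homocysteine to methionine, while Cbs and Cth carry homocysteine on to cysteine. Ahcy was called, 5 of the 6 genes were above 0 (Mat1a not with total counts alone, and only Gnmt and Ahcy in TPM), and the median log2 fold change was 0.31. That median was 0.56 among livers with a sample title number of 100 or above and 0.08 among those numbered below 100. This gap in the class median was not tested.

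Ahcy had 1957, 2765 and 3000 CPM (lowest, median and highest) in transplant livers, against 1326, 1738 and 2324 CPM in empty scaffold livers. Of the 6 transplant livers, 5 lay above every empty scaffold liver. The means were 2654 ± 385 CPM in transplant livers and 1783 ± 383 CPM in empty scaffold livers (SD, n = 6 and n = 8), a log2 fold change of 0.57 ± 0.15 (SE) with an adjusted p of 0.0340 (0.36 with total counts alone, 0.14 in TPM). The call was kept in 6 of the 14 fits that each left out 1 library, and lost without transplant replicate 1, 2, 3 or 5 or empty scaffold replicate 2, 3, 4 or 8 (adjusted p 0.0525 to 0.0889). Of the 31-base words of the leading Ahcy transcript, 79.4% also occur in the predicted gene Gm4737, so reads of these genes could be split, but Gm4737 held 0.0206% of their joint counts and the joint log2 ratio of means was likewise 0.57.

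Gnmt had the largest fold change of the 36, 0.66 ± 0.23, and was not called (adjusted p = 0.0798). It had 830, 1424 and 2440 CPM in transplant livers, against 596, 922 and 1562 CPM in empty scaffold livers. The groups overlapped, and the spread of Gnmt within groups, 0.49 on the log2 CPM scale, was exceeded only by that of Sds (0.53) among the 36. Cth had 189, 226 and 298 CPM in transplant livers, against 128.98, 177 and 274 CPM in empty scaffold livers (0.37 ± 0.16, adjusted p = 0.125). Bhmt (0.26 ± 0.16) and Mat1a (0.16 ± 0.13) did not pass the test, nor did Cbs, the only gene of this class below 0 (-0.22 ± 0.15, adjusted p = 0.324).

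Cbs and Cth, the consecutive steps of transsulfuration, thus had fold changes of opposite sign. Their log2 ratio within a library, Cbs over Cth, was -0.76, 0.15 and 0.49 in transplant livers, against 0.0, 0.77 and 1.0 in empty scaffold livers. The difference of means was -0.60 (two-sided exact permutation p = 0.0123), which did not pass after adjustment over the 6 pairs of related enzymes compared (adjusted p = 0.0739). It did pass without empty scaffold replicate 5 (-0.69, adjusted p = 0.0175) and from TPM in place of CPM (-0.71, adjusted p = 0.04). With each library left out in turn, the difference ran from -0.69 to -0.43. The lowest ratio, -0.76, was in transplant replicate 1, which had the lowest Cbs and the highest Cth of its group. The leading Cbs transcript held 26.6% to 58.5% of the gene's counts in transplant livers and 50.1% to 55.4% in empty scaffold livers.

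In proline and ornithine breakdown, Prodh rose and its 2 partners were not called, a difference that was not tested. Prodh had 199, 249 and 286 CPM in transplant livers, against 147, 195 and 222 CPM in empty scaffold livers, and 5 of the 6 transplant livers lay above every empty scaffold liver. The means were 246 ± 30.9 CPM in transplant livers and 189 ± 24.2 CPM in empty scaffold livers (SD, n = 6 and n = 8), a log2 fold change of 0.38 ± 0.11 with an adjusted p of 0.0426 (0.14 with total counts alone, -0.09 in TPM). The call was lost in 8 of 14 fits, those without transplant replicate 1, 4, 5 or 6 or empty scaffold replicate 2, 3, 4 or 8 (adjusted p 0.0652 to 0.0985). Prodh was spread over 10 listed transcripts, the leading of which held 32.9% to 71.9% of its counts in transplant livers and 30.9% to 77.5% in empty scaffold livers. Aldh4a1, which oxidises the product of Prodh to glutamate, had a log2 fold change of -0.05 ± 0.14, and Oat, the ornithine aminotransferase, 0.21 ± 0.19, neither past the test.

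All 7 genes of branched chain breakdown were above 0 with TMM factors, between 0.10 and 0.36, where Bckdha, Bckdhb, Ivd and Pcca lay below 0 with total counts alone and all 7 in TPM. Hibch was called. Hibch had 82.4, 85.9 and 107 CPM in transplant livers, against 60.9, 66.7 and 87.4 CPM in empty scaffold livers. Of the empty scaffold livers, 7 of 8 lay below every transplant liver, and replicate 5 lay above 4 of them. The means were 89.1 ± 9.21 CPM in transplant livers and 69.5 ± 8.52 CPM in empty scaffold livers (SD, n = 6 and n = 8), a log2 fold change of 0.36 ± 0.09 with an adjusted p of 0.0368 (0.13 with total counts alone, -0.10 in TPM). The call was lost without transplant replicate 1, 3 or 5 or empty scaffold replicate 1, 2, 3, 4 or 8 (adjusted p 0.0539 to 0.0970), and it was lost when trends with transcript length and GC content were removed (0.16, adjusted p = 0.107).

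Pccb, the beta subunit of propionyl-CoA carboxylase, was the only one of the 36 genes whose CPM ranges did not overlap. It had 235, 246 and 265 CPM in transplant livers, against 186, 212 and 229 CPM in empty scaffold livers. Of all tested genes, 75 (0.571%) had a transplant range wholly above the empty scaffold range. The adjusted p of Pccb was 0.0619 (0.25 ± 0.08, but 0.02 with total counts alone and -0.24 in TPM), so it was not called. It passed the test once those trends were taken out (0.26, adjusted p = 0.0424), but not with an offset from effective lengths (0.18, adjusted p = 0.254). In TPM its ranges overlapped, at 77.5 to 119 in transplant livers and 92.4 to 127 in empty scaffold livers. Pcca, the alpha subunit of the same carboxylase, had a log2 fold change of 0.10 ± 0.07. The log2 ratio Pcca over Pccb differed by -0.15 (exact permutation p = 0.0486, adjusted p = 0.146). From TPM in place of CPM, this difference had the other sign.

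Of the branched chain keto acid dehydrogenase, the E1 subunits Bckdha (0.20 ± 0.12) and Bckdhb (0.18 ± 0.10) and the E2 subunit Dbt (0.29 ± 0.11) were not called. The log2 ratio Bckdha over Bckdhb differed by 0.03 between the groups (exact permutation p = 0.802, adjusted p = 0.834). Ivd, isovaleryl-CoA dehydrogenase of leucine breakdown, stood at 0.20 ± 0.10. Bckdha shares 55.4% of its 31-base words with B3gnt8, which held 0.159% of their joint counts.

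Neither gene of lysine breakdown was called, and both had an unadjusted p under 0.05. Aass, which carries out the first steps of the saccharopine pathway, had 228, 244 and 320 CPM in transplant livers, against 184, 210 and 233 CPM in empty scaffold livers. All but 1 transplant liver lay above every empty scaffold liver (0.31 ± 0.10, adjusted p = 0.0561), and Aass passed the test once the trends in length and GC content were taken out (0.40, adjusted p = 0.0192). Gcdh, glutaryl-CoA dehydrogenase further down the same route, stood at 0.25 ± 0.09 (adjusted p = 0.0985).

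None of the 4 genes of phenylalanine and tyrosine breakdown was called, and all 4 were above 0 (median 0.22), though Hgd and Fah lay below 0 with total counts alone and all but Hpd in TPM. Hpd, which makes homogentisate, had 1809, 2249 and 2477 CPM in transplant livers, against 933, 1511 and 2169 CPM in empty scaffold livers. The groups overlapped, and the means were 2217 ± 246 CPM in transplant livers and 1583 ± 438 CPM in empty scaffold livers (SD, n = 6 and n = 8), a log2 fold change of 0.49 ± 0.17 (adjusted p = 0.0733). Tat, the tyrosine aminotransferase that opens the pathway, stood at 0.23 ± 0.14. Hgd, the dioxygenase after Hpd, stood at 0.18 ± 0.12 and Fah, the last enzyme, at 0.21 ± 0.15.

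The 4 genes of the kynurenine route of tryptophan breakdown were likewise not called and above 0 (median 0.24), with Kmo and Kynu below 0 under total counts alone and all 4 in TPM. Haao, which makes the precursor of quinolinate, had 483, 528 and 592 CPM in transplant livers, against 277, 406 and 576 CPM in empty scaffold livers (0.35 ± 0.14, adjusted p = 0.101). The lowest transplant liver lay above the middle of the empty scaffold livers, and the groups overlapped. Tdo2, the dioxygenase that opens the route, stood at 0.28 ± 0.15, the monooxygenase Kmo at 0.19 ± 0.09 and the hydrolase Kynu at 0.08 ± 0.12.

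The 4 aminotransferases of alanine, aspartate and glyoxylate were not called (median 0.16). Gpt, the alanine aminotransferase of the cytosol, had 328, 398 and 462 CPM in transplant livers, against 286, 348 and 369 CPM in empty scaffold livers, with overlapping ranges (0.22 ± 0.10, adjusted p = 0.130). Its mitochondrial counterpart Gpt2 stood at 0.11 ± 0.09, and the log2 ratio Gpt over Gpt2 differed by 0.11 (exact permutation p = 0.346, adjusted p = 0.693). Got1, the aspartate aminotransferase of the cytosol, stood at -0.09 ± 0.15, and its ratio to the mitochondrial Got2 differed by -0.03 (exact permutation p = 0.834, adjusted p = 0.834). Agxt, which removes glyoxylate in peroxisomes, stood at 0.28 ± 0.14.

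Serine dehydratase Sds, the most variable of the 36 within groups, and the related Sdsl were not called. Sds had 82.4, 119 and 180 CPM in transplant livers, against 57.5, 107 and 192 CPM in empty scaffold livers, so that the transplant range lay inside the other (0.21 ± 0.25, adjusted p = 0.589). Livers with a title number of 100 or above had 57.5 to 99.8 CPM of Sds, and those numbered below 100 had 125 to 192 CPM. With that number range as a covariate, edgeR gave Sds a log2 fold change of 0.23 (adjusted p = 0.154). Sdsl stood at 0.11 ± 0.17, and the log2 ratio Sds over Sdsl differed by 0.11 (exact permutation p = 0.498, adjusted p = 0.746). Sds shares 35.3% of its 31-base words with Plbd2, which held 35.1% of their joint counts. The log2 ratio of group means was 0.21 for Sds and 0.11 for both together, so the value of Sds is uncertain.

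Histidine breakdown was, with TMM factors, the only class with a median below 0 (-0.09), and none of its 4 genes was called (adjusted p 0.356 to 0.869). Uroc1, the urocanate hydratase, had 253, 377 and 427 CPM in transplant livers, against 319, 417 and 464 CPM in empty scaffold livers (-0.16 ± 0.12). Hal, the ammonia lyase that opens the pathway, stood at -0.11 ± 0.13, the imidazolonepropionase Amdhd1 at -0.06 ± 0.14 and Ftcd, which passes the formimino group to folate, at 0.02 ± 0.08. The ranges of Uroc1 overlapped, and whether this class differed from the others was not tested.

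**Figure D3:**
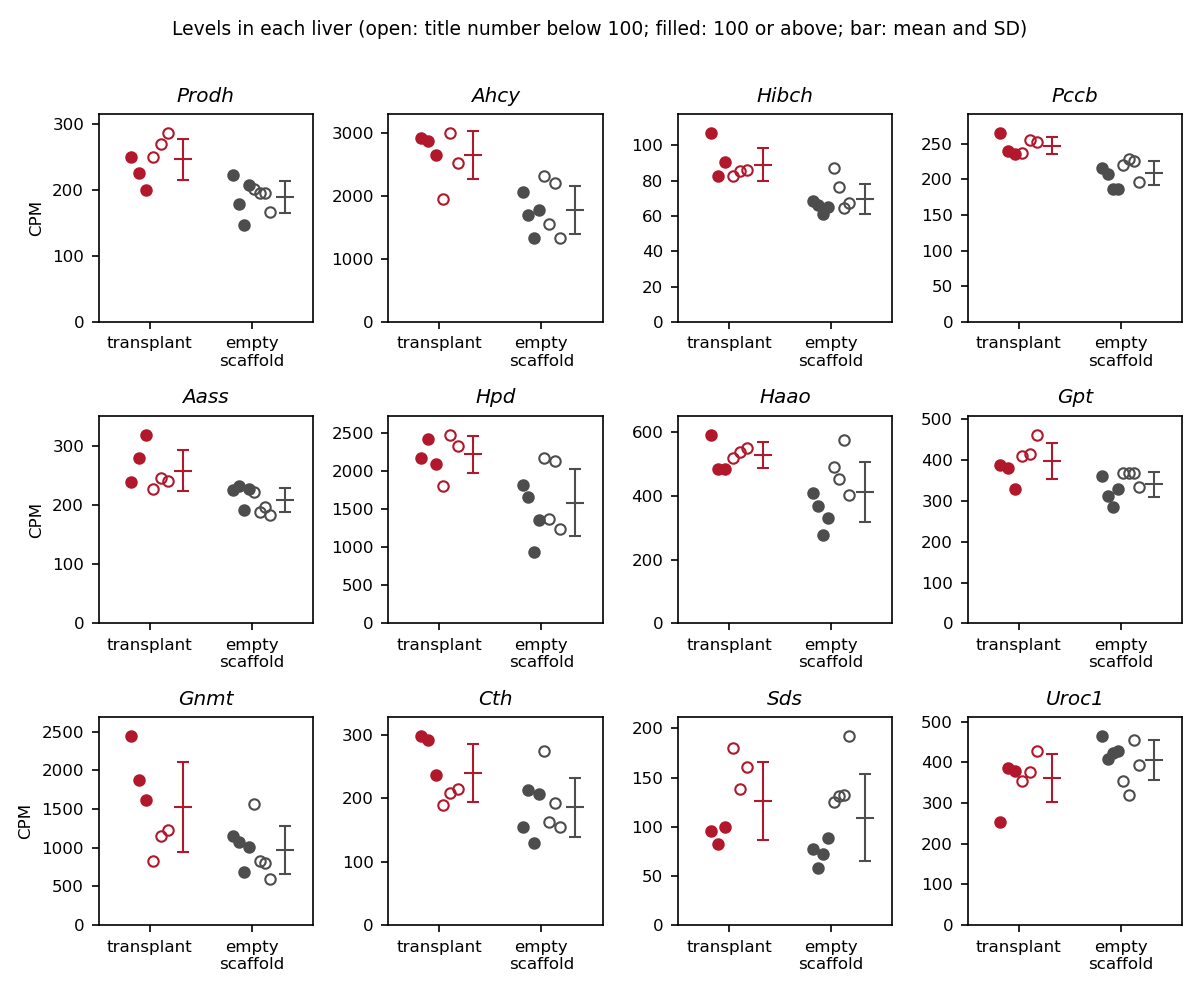
CPM with TMM factors in each library for 12 of the genes, transplant left of empty scaffold, with each point a library, filled where the number in the sample title is 100 or above, and bars for mean and SD. Pccb is the gene whose groups do not overlap, with 235 CPM as the lowest transplant value and 229 CPM as the highest empty scaffold value.

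Summed over the 36 genes, transplant livers had 23021, 25567 and 27688 CPM, against 17100, 21271 and 25322 CPM in empty scaffold livers. The groups overlapped. Transplant replicate 6 had the highest value of its group in 12 of the 36 genes and replicate 4 the lowest in 11, while empty scaffold replicate 5 had the highest of its group in 12 and replicate 3 the lowest in 20.

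**Figure D4:**
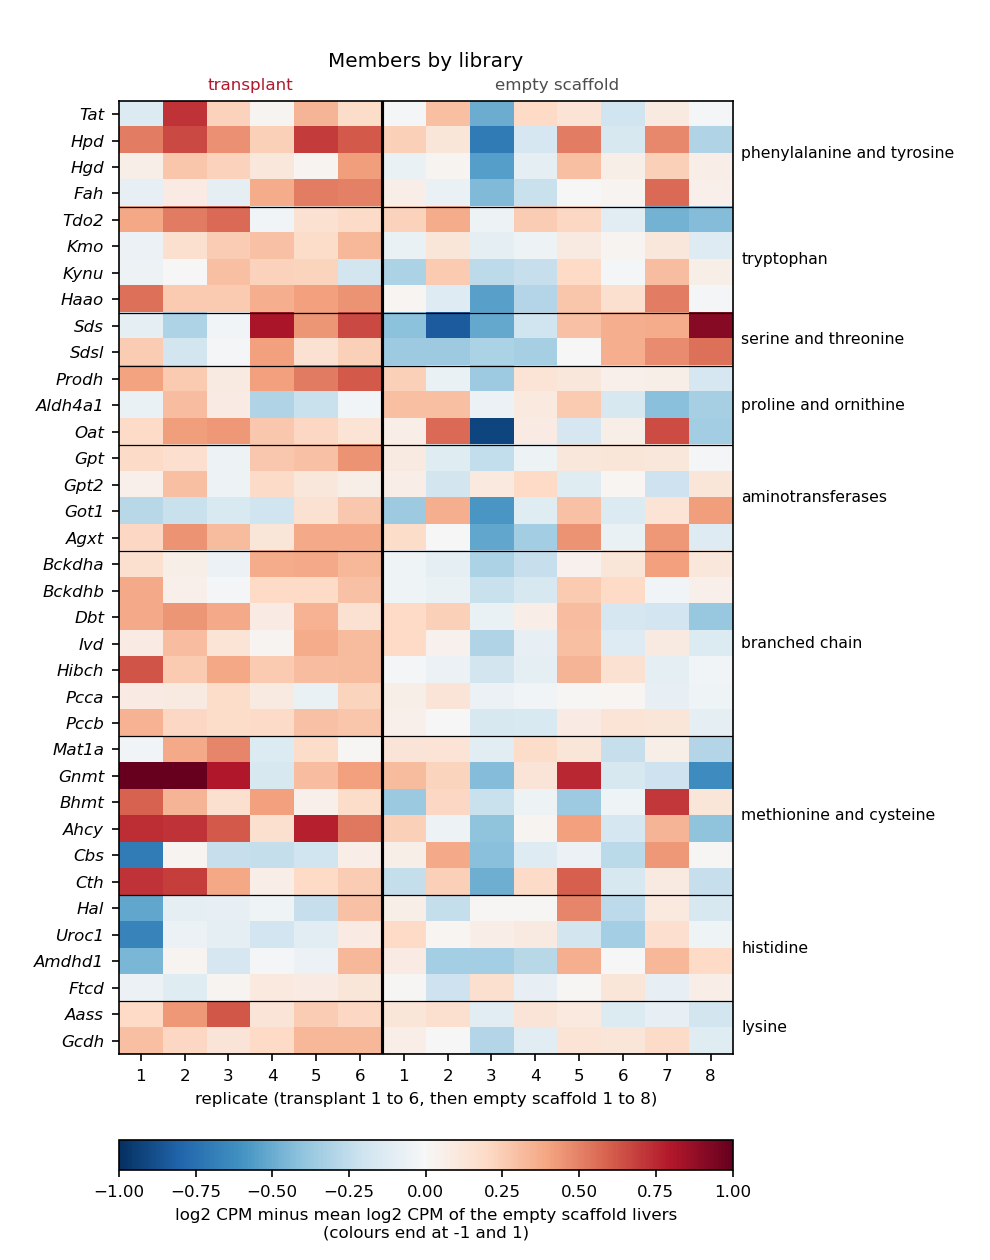
Log2 CPM of each gene in each library minus the mean of the empty scaffold livers, with transplant replicates on the left and empty scaffold replicates on the right, and colours ending at -1 and 1. Empty scaffold replicate 3 is low in many genes, with the lowest value of its group in 20 of 36.

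After the group means were taken out, some genes of different classes varied together across the 14 libraries. Pearson's r was 0.95 for Hpd and Agxt, 0.94 for Mat1a and Aass, 0.94 for Tdo2 and Aldh4a1 and 0.93 for Fah and Bckdha. Others varied in opposite directions, with r of -0.85 for Tdo2 and Sdsl, -0.83 for Sdsl and Aldh4a1 and -0.80 for Tdo2 and Sds. The median was 0.29 over 65 pairs of the same class and 0.21 over 565 pairs of different classes. These are descriptions over 14 points that share library, depth, trends with transcript length and the range of the title number, which was not taken out and with which Tdo2, Sds, Sdsl, Fah and Bckdha differ.

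The levels of the 36 genes, compared per length in TPM, spanned a wide range. Bhmt had the highest median over all libraries, 1859 TPM, followed by Hpd (1481) and Gnmt (1340), an order found in both groups. Next came Mat1a, Ahcy and Tdo2, whose order differed between groups, with medians of 763, 914 and 815 TPM in transplant livers, against 1278, 888 and 988 TPM in empty scaffold livers. Neighbours overlapped, for example from 1314 to 2607 TPM for Bhmt and from 1063 to 2112 TPM for Hpd. Sdsl was lowest with 6.6 TPM (5.15 to 9.23), below Kynu with 14.5 and Dbt with 25.2. The called genes lay at different heights of this order, with Ahcy near the top, Prodh at 93.0 TPM and Hibch at 59.7 TPM. In 25 of the 36 genes the leading transcript held at least 90% of the counts, among them Ahcy with 99.9% and Hibch with 98.9%.

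Each sample title holds a number that the labels do not explain, and these lie below 100 (3 transplant and 4 empty scaffold livers) or at 100 and above (3 transplant and 4 empty scaffold livers). Within each range, transplant livers and empty scaffold livers hold separate runs of numbers, so anything that follows them there cannot be told apart from the group. With the range as a covariate, 8 of the 36 genes were called higher (Aass, Ahcy, Dbt, Haao, Hibch, Hpd, Pccb and Prodh) and none lower, where 10.6% of all genes were called higher and 9.08% lower. Among livers numbered 100 or above, 6 were called higher (Ahcy, Cth, Gnmt, Haao, Hibch and Hpd) and none lower, where 14.5% of all genes were called higher and 11.5% lower. Among livers numbered below 100 edgeR called none, where 0.0154% of all genes were called higher and 0.00771% lower. At an unadjusted p under 0.05, 3 of the 36 were higher and 0 lower there, beside 9.31% of all genes in either direction. The medians of the 36 were 0.28 in the higher range and 0.15 in the lower one.

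Between the ranges themselves, whatever the group, 1 of the 36 was higher and 5 were lower at 100 or above, where 12.5% of all genes were higher and 10.9% lower (a test chosen after seeing the data).

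The largest gap between the ranges in the transplant difference was in Gnmt, with a log2 fold change of 1.01 among livers numbered 100 or above and 0.18 among those below. Cth stood at 0.65 and 0.07 in the same order and Cbs at -0.28 and -0.16, while Prodh stood at 0.25 and 0.50. Of the 36 genes, 24 had the larger value in the higher range and 27 were above 0 in both. Of all genes, 47.5% were above 0 in the higher range and 48.9% in the lower one. The test of the difference itself, the interaction of group and range, called none of the 36 and none of all tested genes (edgeR). Its estimate was above 0, the larger value in the higher range, in 24 of the 36 and in 51.3% of all genes. At an unadjusted p under 0.05 it gave 2275 of all genes and, of the 36, Sdsl (0.0315), Cth (0.0483) and Gnmt (0.0492). With trends in length and GC content taken out, the same test gave 1366 of all genes and 0 of the 36 at that limit.

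**Figure D5:**
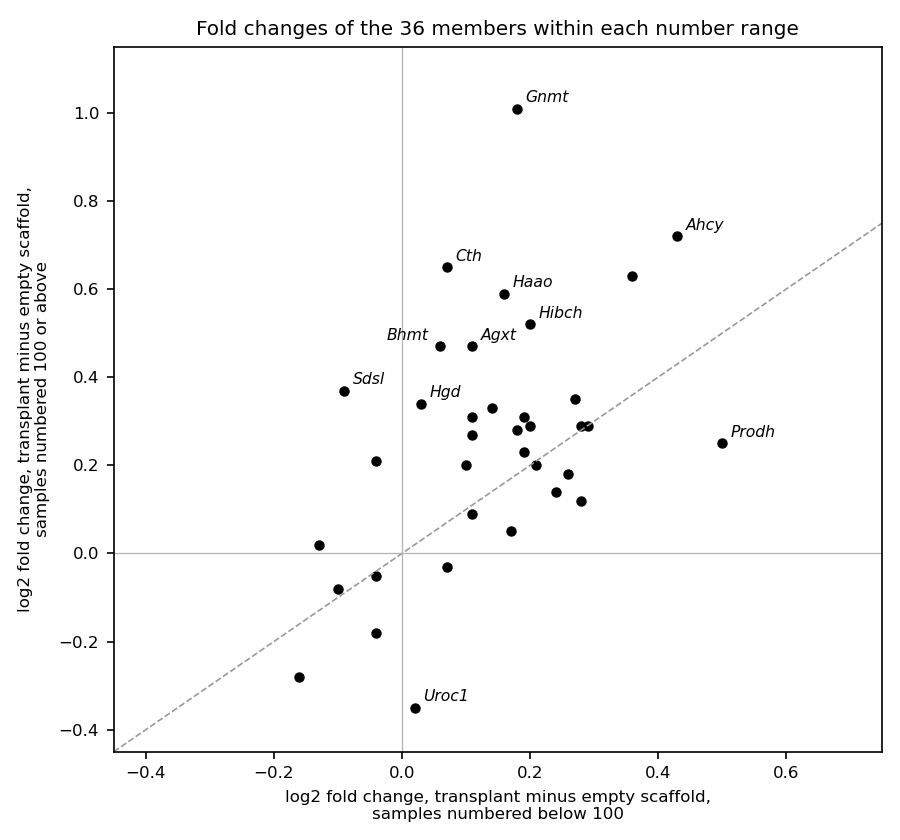
Log2 fold change, transplant minus empty scaffold, of the 36 genes among livers with title numbers of 100 or above against that among livers with numbers below 100, with TMM factors. Gnmt lies farthest above the dashed line of equal values (1.01 against 0.18), and the interaction was called for none of the 36.

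The other genes of amino acid breakdown, a list of 56 tested genes that holds none of the 36, were called higher in 7 cases and lower in none, beside 3.31% and 4.23% of all genes. At an unadjusted p under 0.05, 22 were higher and 0 lower, and the median was 0.15. Beside the unadjusted counts here and for the lists below, 3940 of all 13127 tested genes passed that limit in either direction. Hao1, the peroxisomal glycolate oxidase that supplies glyoxylate to Agxt, had 226, 255 and 281 CPM in transplant livers, against 169, 190 and 217 CPM in empty scaffold livers. Its ranges did not overlap, and the call (0.43 ± 0.09, adjusted p = 0.0156) held in each of the 14 fits that left out 1 library. Also called were Afmid, the formamidase between Tdo2 and Kmo (0.65 ± 0.16, adjusted p = 0.0282), Auh, a hydratase of leucine breakdown (0.37 ± 0.09, adjusted p = 0.0314), and Hsd17b10, a dehydrogenase of isoleucine breakdown (0.71 ± 0.18, adjusted p = 0.0321). Afmid kept its call in 9, Auh in 8 and Hsd17b10 in 8 of those 14 fits. The remaining 3, Aadat, Gcsh and Gstz1, kept theirs in 6, 5 and 3, and lost it with trends in length and GC content taken out (adjusted p = 0.411, 0.204 and 0.0875).

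Of 19 amino acid transporters of hepatocytes, 1 rose and 2 fell, beside 3.31% and 4.23% of all genes, with a median of 0.0. Slc43a1, a facilitated transporter of large neutral amino acids, rose (0.84 ± 0.18, adjusted p = 0.0185). Slc7a8, an exchanger of neutral amino acids, fell by 1.14 on the log2 scale (SE 0.22, adjusted p = 0.0143), and Slc1a4, a carrier of alanine, serine and cysteine, by 0.73 (SE 0.17, adjusted p = 0.0257), a call that was lost once trends in length and GC content were taken out (adjusted p = 0.102). All 3 were low, with no library above 12.9 CPM. Of 14 regulators of amino acid breakdown, among them the glucocorticoid receptor Nr3c1, Klf15, the glucagon receptor Gcgr and Ppargc1a, edgeR called none (2 higher and 1 lower at an unadjusted p under 0.05), and their median was 0.02.

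Total estimated counts per library were 22898793 to 28910968 in transplant livers and 19482580 to 28723928 in empty scaffold livers. Hepatocyte markers summed to 97306 to 149876 CPM in transplant livers and 86641 to 150813 CPM in empty scaffold livers, with 0 of 8 called (2 higher and 0 lower at an unadjusted p under 0.05) and a median of 0.14. Some markers of other liver cells were called lower in transplant livers, beside 4.23% of all genes. These were 4 of 10 for Kupffer cells (Csf1r, Cd5l, C1qb and C1qc), 3 of 9 for stellate cells (Col3a1, Col1a2 and Lrat), 2 of 8 for sinusoidal endothelium (Stab2 and Cdh5), 2 of 7 for infiltrating macrophages (Gpnmb and Trem2) and 1 of 2 for neutrophils (Csf3r). Summed over every marker of a list, called or not, Kupffer cell markers had 152 to 229 CPM in transplant livers against 194 to 461 CPM in empty scaffold livers, and stellate cell markers 128 to 254 CPM in transplant livers against 162 to 366 CPM in empty scaffold livers. The same sums were 86.3 to 125 CPM in transplant livers against 113 to 178.3 CPM in empty scaffold livers for sinusoidal endothelium, and 34.8 to 78.2 CPM in transplant livers against 44.2 to 99.0 CPM in empty scaffold livers for infiltrating macrophages. Dcn, not called, made up much of the stellate sums, with means of 112 CPM in transplant livers and 121 CPM in empty scaffold livers. Spp1, not called and also a cholangiocyte marker, did so for infiltrating macrophages, with means of 35.8 CPM in transplant livers and 46.0 CPM in empty scaffold livers. With trends in length and GC content taken out, the 4 named Kupffer cell markers and Trem2 kept the call, while the named stellate, endothelial and neutrophil markers and Gpnmb lost it (adjusted p 0.0662 to 0.183). In bulk tissue, fewer cells of a type and less RNA per cell cannot be told apart, and the part of these markers in the fold changes of the 36 genes was not tested.

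Periportal and pericentral hepatocyte markers had the same median, 0.20, with Arg1, the arginase of the urea cycle, the only one called of 10 periportal markers and none of 10 pericentral markers (3 higher and 0 lower at an unadjusted p under 0.05). Hal, Sds, Uroc1 and Oat stand on these lists too. The single tested markers of skeletal muscle (Mylpf) and pancreas (Cela1) were called higher, while the pancreas markers Prss2, Cpa1 and Pnlip were at 0 in every library. The calls of Arg1 (adjusted p = 0.0879), Mylpf (0.0658) and Cela1 (0.122) were lost with trends in length and GC content taken out, and Arg1 was called in 4 of the 14 fits that left out 1 library. None of the cholangiocyte (6), T and natural killer cell (4), B and plasma cell (3), erythroid (3) and adipocyte (1) markers tested was called (2 higher and 2 lower at an unadjusted p under 0.05).

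Libraries also differed in how gene level changed with transcript length, by -0.319 to 0.037 per doubling of length on the log2 scale in transplant livers and -0.117 to 0.272 in empty scaffold livers. The 36 genes have a median transcript length of 2103 bases, against 2372 over all tested genes. With trends in length and GC content removed, 5 of the 36 were called higher (Aass, Ahcy, Dbt, Pccb and Prodh) and none lower, where 1.53% of all genes were called higher and 2.11% lower, and the median of the 36 was 0.19. Of the 3 genes called in the first place, Ahcy (0.63, adjusted p = 0.035) and Prodh (0.42, adjusted p = 0.033) kept the call.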

How the data were processed

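Liver RNA of 14 samples was sequenced. Per the labels' protocols, samples with a RIN above 7 entered stranded mRNA libraries (NEBNext Ultra II Directional) from 200 ng of total RNA. The submitters' processing notes name fastp 0.20, kallisto 0.46.1, DESeq2 1.38 and GRCm39. What options kallisto ran with, and on which annotation, is not given in the sources used here.

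For each of 128803 transcripts the authors deposited, per the file headers, an estimated count, a TPM value, a length and an effective length. Effective lengths, in bases as deposited by the authors, served only as an alternative offset. Deposited TPM values entered no test across genes and were used for levels between genes and for 1 alternative scaling. Transcripts were assigned to genes through GENCODE M21, an annotation of GRCm38, which matched 120608 (93.6%) and at least 99.39% of the counts of each library.

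Estimated counts were summed per gene and rounded. Genes passing filterByExpr (13127) were tested with edgeR 4.0.16 (R 4.3.3, limma 3.58.1), using TMM factors and a robust, two-sided quasi-likelihood F test in which group was the sole term. Benjamini-Hochberg adjustment covered all 13127 genes, and an adjusted p below 0.05 made a call, whatever the fold. Log2 fold changes run transplant minus empty scaffold, ± the standard error of the fit. DESeq2 1.42.0 was an alternative. The scripts were tested on simulated data. Ratios of 6 enzyme pairs were compared by exact permutation over 3003 regroupings.

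The members and the other lists were chosen with earlier results of these data known. Values per group were given for called members, the member with the smallest p of each class, members whose ranges do not overlap and members called within a number range. From other lists, called genes were named, up to the 4 with the smallest adjusted p (Aadat, Gcsh and Gstz1, and the regulators given as examples, were named after their values were seen). Replicate numbers follow accession order and pair no samples. Depth is given with the results.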

Additional observations from a re-analysis of the deposited data

Results flagged for a closer look

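In 4 of the 72 sets of values examined (36 genes in each group), the highest library stood far from the others of its group by Dixon's test, which chance alone does in about 1 of 20 sets. Hibch had 107 CPM in transplant replicate 1, where the next highest transplant liver had 90.4 CPM and the lowest 82.4 CPM. The call of Hibch was lost without that library. Fah had 758 CPM in empty scaffold replicate 7, where the next highest had 534 CPM and the lowest 375 CPM. Bhmt had 6381 CPM in the same library, where the next highest had 4531 CPM and the lowest 3027 CPM. Hal had 375 CPM in empty scaffold replicate 5, where the next highest had 285 CPM and the lowest 223 CPM.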

How the results depend on the processing

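No paired analysis was possible because replicates were numbered only in the order of their accessions, which ties no transplant liver to an empty scaffold liver. In place of 990, the number of genes called over all tested genes was 1965 with DESeq2, 315 with an effective length offset, 478 with length and GC trends removed, 2580 with the number range as a covariate, 3 among livers numbered below 100, 3488 among those at 100 or above and 2884 with total counts only. In place of 3, the members called higher were 9 with DESeq2 (7.86% of all genes), 1 with no filter on low counts (Ahcy, 1.13% of all genes), 0 with the effective length offset (1.04% of all genes), 5 with trends removed, 8 with the range covariate, 0 below 100, 6 at 100 or above, 7 with the range covariate and trends removed together (3.04% of all genes) and 0 with total counts only, where 2 (Cbs and Uroc1) were called lower. With each library left out in turn, 0 to 7 members were called higher (0.385% to 7.43% of all genes) and 138 to 1908 genes over all, and the median of the members was 0.16 to 0.24. No member was called without transplant replicate 1 or 5 or empty scaffold replicate 2, 3, 4 or 8 (138, 200, 512, 263, 240 and 296 genes over all), 7 without empty scaffold replicate 5 (1568) and 6 without empty scaffold replicate 7 (1908). Without transplant replicate 3 or empty scaffold replicate 1, 404 and 646 genes were called. The median of the members was -0.01 with total counts only and -0.23 in TPM. The range covariate with trends, the total counts and the TPM scaling were chosen after seeing the data.

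These fold changes and ratios had the other sign. With total counts only they were Hgd -0.04, Fah -0.01, Kmo -0.03, Kynu -0.14, Sds -0.01, Sdsl -0.11, Gpt -0.01, Gpt2 -0.13, Bckdha -0.02, Bckdhb -0.05, Ivd -0.02, Pcca -0.13, Mat1a -0.07 and Ftcd -0.21, where the median of all genes was -0.25. Among livers numbered below 100 they were Kynu -0.04, Sdsl -0.09 and Uroc1 0.02, and at 100 or above Amdhd1 0.02 and Ftcd -0.03. With trends removed, and with the range covariate added, Aldh4a1 was 0.16 and 0.15, Bckdhb -0.05 in both, Pcca -0.06 in both and Uroc1 0.01 in both. With the effective length offset Hal was 0.01 and Ftcd -0.03. With 1 library left out Amdhd1 ran from -0.15 to 0.0 and Ftcd from -0.01 to 0.05. The ratio Sds/Sdsl was -0.02 at 100 or above, Got1/Got2 0.02 from TPM and 0.14 at 100 or above, Bckdha/Bckdhb -0.16 from TPM and -0.03 at 100 or above, and Pcca/Pccb 0.20 from TPM. Cbs/Cth passed the test from TPM (-0.71). With 1 library left out, Got1/Got2 ran from -0.09 to 0.04, Bckdha/Bckdhb from -0.01 to 0.09 and Cbs/Cth from -0.69 to -0.43. The cause was not tested. Over the 24 refits of the 36 fold changes, 761 values kept sign and call, 34 gained a call, 38 lost it and 31 changed sign, and in the deposited TPM values, which had no test, 27 of the 36 changed sign. Sdsl, with 7.36 to 13.9 CPM, is the member that depth limits most.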

Other observations

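Some of the 36 genes differed between livers by the number in the sample title in the fit with range and group, where 1 of the 36 was higher and 5 were lower at numbers of 100 or above, beside 12.5% and 10.9% of all tested genes. Sds, the serine dehydratase, averaged 81.8 CPM in livers numbered 100 or above and 151 CPM in those numbered below 100, with no overlap (57.5 to 99.8 CPM against 125 to 192 CPM). Its log2 difference was -0.90 ± 0.12 (SE, adjusted p = 0.00235). Sdsl had a log2 difference of -0.50 ± 0.11 (adjusted p = 0.00583), Bckdha of -0.33 ± 0.08 (adjusted p = 0.0102), Fah of -0.40 ± 0.11 (adjusted p = 0.0144) and Amdhd1 of -0.37 ± 0.11 (adjusted p = 0.0194). Tdo2 was the gene that was higher, with means of 1763 CPM at 100 or above and 1352 CPM below 100 (0.38 ± 0.11, adjusted p = 0.0219). None of these 6 was called between transplant and empty scaffold livers. Trends with transcript length, which differed among these libraries, were not taken out of this fit.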
